A study of Mus musculus with 12 samples.

Results

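The genes described here are the axon guidance ligands and receptors of the mouse liver. They were taken by symbol, whatever their values, as the class 3 to class 7 semaphorins and their plexin and neuropilin receptors, the Slits and Robos, the netrins and Unc5 receptors, and the ephrins and Eph receptors. There were 66 such symbols among the 38024 gene names of the study. Each of the gene tables held 65 of them, of 31663 names in the choline-deficient ethionine-supplemented (CDE) diet table and of 25285 names in the normal diet table, and 64 were in both. Slit3 was only in the former and Ntn5 only in the latter. The semaphorin system made up 31 members (20 semaphorins, 9 plexins and 2 neuropilins), the ephrin system 20 (4 ephrin-As, 3 ephrin-Bs, 8 EphAs and 5 EphBs), the netrins and Unc5 receptors 8 and the Slits and Robos 7.

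Whole-liver polyadenylated RNA was sequenced from 12 C57BL/6 mice in 4 groups of 3. CflarLKO mice carried floxed Cflar and the Cre recombinase driven by the albumin promoter, which acts in hepatocytes and in cells derived from albumin-expressing progenitors, and CflarFF mice carried the floxed alleles without Cre. Both were females that started the CDE diet, with 0.15% DL-ethionine in the water, at 8 weeks of age and stayed on it for 28 days. Fgf18Tg mice carried the same albumin promoter-driven Cre and an Fgf18 cDNA in the Rosa26 locus that Cre switches on, and NonTg mice were their controls. These mice were 8 weeks old on the normal diet. The labels give no sex for them. Each of their libraries had the counts of a male, with Xist at 0 to 4, Ddx3y at 59 to 187 and Eif2s3y at 63 to 184. In the CDE diet libraries these were 2694 to 4458, 0 to 3 and 1 to 4. cFLIP, the inhibitor of caspase-8 that Cflar encodes, is reduced but not lost in CflarLKO livers. Each experiment was compared on its own, and diet, age, sex and gene table cannot be told apart from the genotypes when the experiments are set side by side.

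Axon guidance cues were found as signals that attract or repel growing nerve fibres, and they also steer blood vessels, immune cells and epithelia. Semaphorins act through plexins, secreted class 3 members mostly with a neuropilin as co-receptor. Slits act through Robo receptors, netrins through Dcc, neogenin and the Unc5 receptors, and ephrins, which are held on the cell surface, through Eph receptor kinases on a neighbouring cell. In the liver these genes are known mainly from endothelial cells, stellate cells, bile ducts and nerve fibres, and whole-liver RNA mixes all of these with hepatocytes. More cells of a type and more RNA per cell cannot be told apart in such samples.

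The target of each model was checked first. Cflar had 592, 608 and 716 normalized counts in the CflarFF libraries and 460.5, 449 and 477 in the CflarLKO libraries, a change of -0.47 (SE 0.13, adjusted p = 0.0236) on the log2 scale, counted over the whole gene although only exon 1 is deleted. This call was lost without CflarFF replicate 3 (-0.37), without any 1 of the CflarLKO libraries (-0.45 to -0.50) and under scaling by library size only (-0.01). Cflar was also lower in Fgf18Tg livers, which lack this deletion, at -0.43 (adjusted p = 0.0277), a call lost with DESeq2, without NonTg replicate 3 (-0.38), without any 1 of the Fgf18Tg libraries (-0.39 to -0.47) and under library size only (-0.03). Fgf18 had 206, 83.3 and 102 normalized counts in NonTg and 5747, 5151 and 4287 in Fgf18Tg libraries, and rose by 5.27 (SE 0.38, adjusted p = 0.000244). The CDE diet libraries held 6487178 to 10414883 counts each, and those of the normal diet 1136680 to 3089872. CflarFF replicate 2 differed from the rest of its group in the share of major urinary protein genes (1.23% of counts, beside 0.156% and 0.17%), and results that moved without it are given.

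In CflarLKO livers more guidance genes were higher than lower, compared with CflarFF livers. Of the 65 members in the table, 51 passed the filter for low counts. The quasi-likelihood test of edgeR called 25 of these higher and 3 lower (Efna1, Nrp1 and Plxna2) at a Benjamini-Hochberg adjusted p under 0.05, and 23 had no call. Over all 17036 genes tested, 15.6% were called higher and 13.1% lower. Under scaling by library size only, 40 members were higher and 1 lower, and the median of all genes was then 0.46 on the log2 scale. The median log2 fold change of the 51 members was 0.96, beside -0.00163 over all genes tested. The filter itself leans on the higher group, since 17 of the 51 members, 13 of the 25 higher ones among them, reached the minimum level in the CflarLKO libraries only. These 13 were Robo2, Slit2, Unc5a, Plxna3, Sema3a, Sema3b, Sema3c, Sema3d, Sema7a, Efnb2, Epha3, Ephb3 and Ephb6. The 33 members that reached it in both groups held the other 12 higher and the 3 lower calls. Over 2-fold higher were 21 members (11.6% of all genes), and over 2-fold lower was only Efna1 (4.06% of all genes). In 31 tested members every CflarLKO value was above every CflarFF value (23.8% of all genes tested), and in 5 every one was below (21%). Ligands and receptors were both among the calls, with 13 higher and 1 lower of 26 ligands, and 12 higher and 2 lower of 25 receptors.

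**Figure D1:**
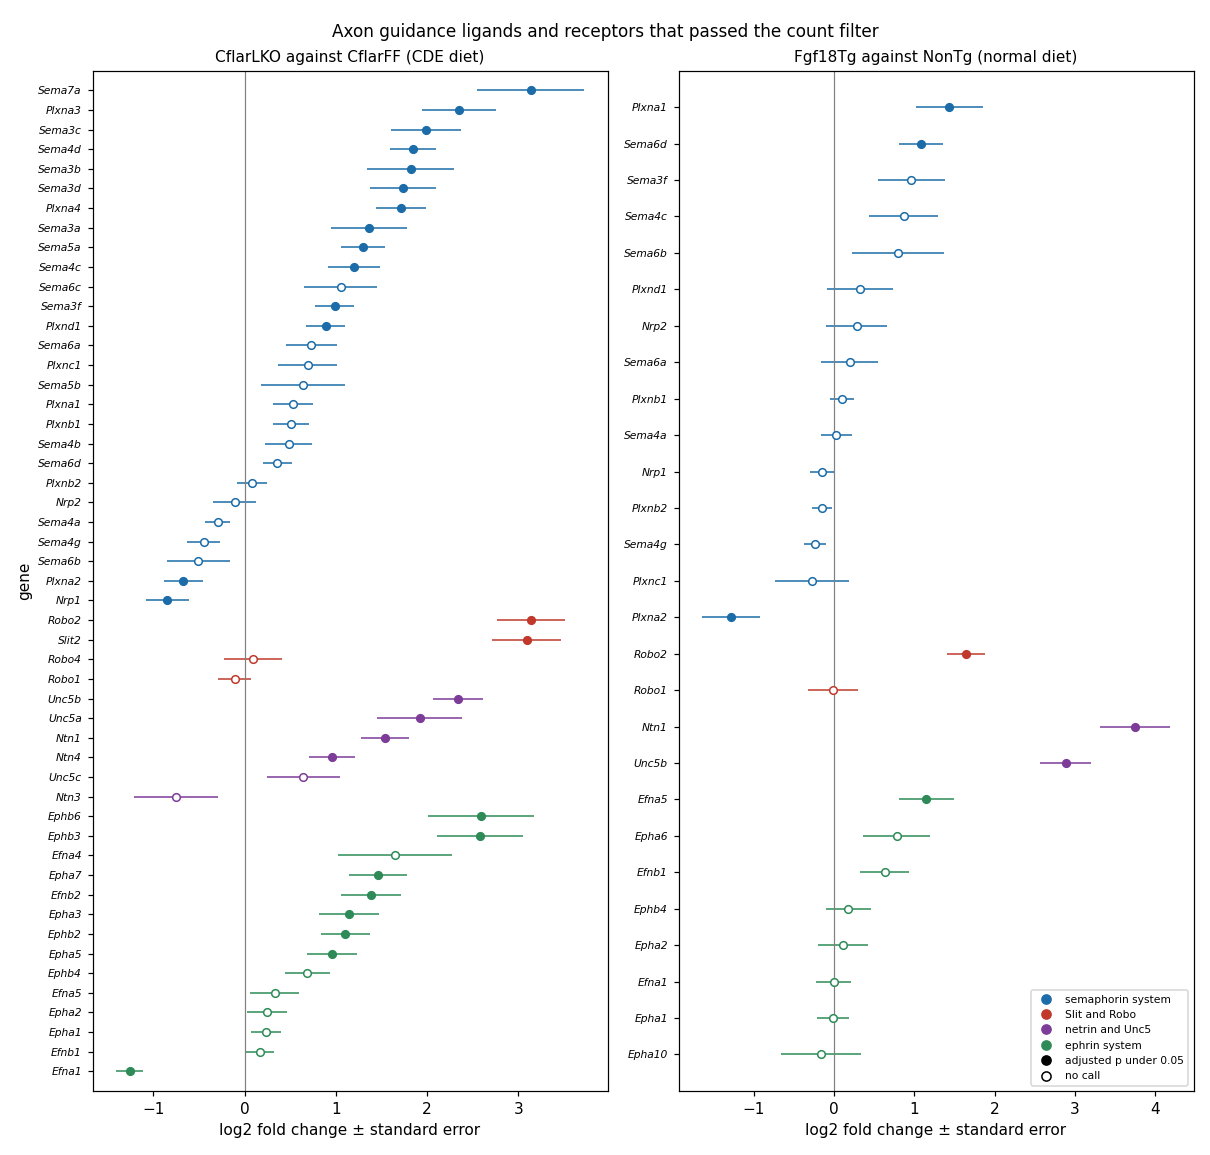
Log2 fold change (points) with its standard error (bars) for each member that passed the count filter, 51 in CflarLKO against CflarFF (left) and 27 in Fgf18Tg against NonTg (right), coloured by family. Filled points are calls at an adjusted p under 0.05. On the left 25 filled points lie above 0 and 3 below it, on the right 6 above and 1 below.

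Robo2 and Slit2, a receptor and a ligand of the same system, were among the members with the largest changes. Both reached the minimum level of the filter in the CflarLKO libraries only, so they could be tested only because they were high there. Robo2 had 5.55, 21.2 and 9.52 normalized counts in the CflarFF libraries and 129, 105 and 84.2 in the CflarLKO libraries. The lowest CflarLKO library was well above the highest CflarFF library, which was replicate 2. Robo2 rose by 3.14 (SE 0.37, adjusted p = 0.000305) on the log2 scale, and by 3.82 without CflarFF replicate 2. Slit2, the most abundant Slit in CflarLKO livers, had 3.33, 8.26 and 4.76 normalized counts in CflarFF and 53.9, 48.7 and 37.3 in CflarLKO libraries, with no overlap, and rose by 3.09 (SE 0.38, adjusted p = 0.000313). Robo1, the other main receptor of Slits, had 161, 138 and 211 in CflarFF and 151, 171 and 150.3 in CflarLKO libraries, and these values overlapped (-0.11, adjusted p = 0.695). Robo4, a Robo of endothelial cells, had no call either (0.09, adjusted p = 0.86). Among the Robo receptors, Robo2 thus made up 2.31% to 7.62% of the normalized counts per kilobase of exon in CflarFF livers and 26.0% to 32.3% in CflarLKO livers, while Robo1 had the largest share in both, at 58.4% to 79.1% and 44.7% to 54.6%. Levels of different genes are set beside each other per kilobase. The sources used here do not say whether reads came from whole transcripts or from one end, in which case length scaling would not apply, and on unscaled counts Robo2 was 2.89% to 9.94% and 31.1% to 38.7%. Slit1, Slit3 and Robo3 had 9 to 14 counts in all over the 6 libraries and were not tested.

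In the netrin system Ntn1, Ntn4, Unc5a and Unc5b rose. Ntn1, the best-studied secreted netrin, had 65.5, 105 and 65.4 normalized counts in CflarFF and 307, 204 and 168 in CflarLKO libraries. All 3 CflarLKO libraries were above all 3 CflarFF libraries, and Ntn1 rose by 1.53 (SE 0.26, adjusted p = 0.00217). Unc5b, a netrin receptor of endothelial and other cells and the most abundant Unc5 receptor in both groups, had 41.1, 77.9 and 36.9 in CflarFF and 318, 218 and 253 in CflarLKO libraries. The groups were far apart, and Unc5b rose by 2.34 (SE 0.27, adjusted p = 0.000308). Unc5a was lower in level, at 3.33, 8.26 and 4.76 in CflarFF and 12.6, 26.1 and 25.3 in CflarLKO libraries, and also rose (1.92 (SE 0.47, adjusted p = 0.0107)). Ntn4, a laminin-related netrin of basement membranes, rose by 0.96 (adjusted p = 0.0158), a call lost without CflarLKO replicate 1 (0.93) or 2 (0.92). Unc5c (0.65) and Ntn3 (-0.75) had no call, and Unc5d was not tested. Of the other netrin receptors, neogenin (Neo1) had no call, with 0.22 on the log2 scale (adjusted p = 0.378), and Dcc had 2, 1 and 2 counts in CflarFF and 3, 3 and 7 in CflarLKO libraries, too few to test.

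Start regions are printed for the Slit2 and Robo2 pair and for Unc5b, the members with large changes on both sides of their systems. RefSeq windows on GRCm38.p6, each from 250 bases before to 50 bases after a transcript start, were matched by symbol to 57 of the 66 members (72 windows). The counts were made on GRCm39, so the windows serve only to show the sequence. Capitals mark GC boxes, the letters GGGCGG on either strand. Unc5b (minus strand, chr10:60831532-60831831) and Slit2 (plus strand, chr5:47982905-47983204) held 3 GC boxes each and the Robo2 window with the most CpG dinucleotides (minus strand, chr16:74411776-74412075) held 0, as did the other Robo2 windows.
Unc5b: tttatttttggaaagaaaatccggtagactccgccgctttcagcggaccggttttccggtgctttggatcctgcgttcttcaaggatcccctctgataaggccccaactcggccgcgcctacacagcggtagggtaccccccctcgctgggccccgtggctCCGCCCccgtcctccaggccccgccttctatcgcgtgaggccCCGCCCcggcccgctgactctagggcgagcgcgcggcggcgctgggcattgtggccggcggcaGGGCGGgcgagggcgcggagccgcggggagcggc
Slit2: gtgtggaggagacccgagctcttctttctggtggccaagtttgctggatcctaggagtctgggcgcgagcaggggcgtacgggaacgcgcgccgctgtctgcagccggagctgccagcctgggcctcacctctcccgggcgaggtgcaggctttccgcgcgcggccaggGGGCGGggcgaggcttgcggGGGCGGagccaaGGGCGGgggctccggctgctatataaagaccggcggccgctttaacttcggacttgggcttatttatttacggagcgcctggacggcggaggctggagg
Robo2: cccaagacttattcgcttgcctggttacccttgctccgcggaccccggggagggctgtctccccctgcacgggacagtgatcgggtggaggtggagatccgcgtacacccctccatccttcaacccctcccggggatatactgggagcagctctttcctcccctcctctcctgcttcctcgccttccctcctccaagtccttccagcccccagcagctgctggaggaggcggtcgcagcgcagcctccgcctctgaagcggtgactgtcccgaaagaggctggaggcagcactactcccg
The Unc5b window had 36 CpG dinucleotides and the Slit2 window 30, beside a median of 18 over the member windows and 7 over all 32851 windows. A GC box was present in 69.4% of member windows and in 35.7% of all windows. The AP-1 letters TGANTCA were in 4.17% of member windows and 7.81% of all windows, and the TEAD letters GGAATG in 12.5% and 14.7%, counted on both strands. These are matches of letters and say nothing of binding.

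The semaphorins included 9 of the 25 higher calls and none of the lower ones. Of the 9, 5 were secreted class 3 members, which act mostly through neuropilins. Sema3c had 12.2, 31.9 and 9.52 normalized counts in CflarFF and 79.8, 57.4 and 75.8 in CflarLKO libraries, and rose by 1.99 (SE 0.38, adjusted p = 0.00344), or by 2.69 without CflarFF replicate 2. The highest CflarFF value was that of replicate 2, still below all CflarLKO values. Sema3d had 6.66, 13 and 14.3 in CflarFF and 28.7, 40 and 45.7 in CflarLKO libraries and rose by 1.73, and Sema3b had 9.99, 14.2 and 2.38 and 37.8, 20 and 37.3 and rose by 1.82. The groups did not overlap for either gene, but the Sema3b call was lost without CflarLKO replicate 1 (1.65) or 3 (1.70). Sema3a, which repels axons through Nrp1, rose by 1.36 and Sema3f, a ligand of Nrp2, by 0.99. The Sema3a call was lost without CflarFF replicate 2 or 3, without any 1 of the CflarLKO libraries, with DESeq2 and under a replicate block (1.38 and 1.36, adjusted p = 0.0722 and 0.0535). Sema3e and Sema3g had 18 counts each over the 6 libraries and were not tested.

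Of 12 membrane-bound semaphorins tested, 4 rose (Sema4c, Sema4d, Sema5a and Sema7a) and 8 had no call, with log2 fold changes of -0.51 to 1.05. Sema4d, also known as CD100 and carried by leukocytes, had 24.4, 24.8 and 15.5 normalized counts in CflarFF and 84, 77.4 and 72.2 in CflarLKO libraries. The CflarLKO values were close together and far above those of CflarFF, and Sema4d rose by 1.85 (SE 0.25, adjusted p = 0.000606). Plxnb1, the plexin that binds Sema4d, was 394 ± 15.2 in CflarLKO and 277 ± 81 in CflarFF livers (SD, n = 3 mice each) and had no call (0.51, edgeR adjusted p = 0.0763). Sema7a, a lipid-anchored semaphorin that binds plexin-C1 and integrins, rose by 3.13 (adjusted p = 0.00278) from 0, 2 and 2 counts in CflarFF to 23, 16 and 11 in CflarLKO libraries. Sema4c, a ligand of plexin-B2, rose by 1.20 and Sema5a, which carries thrombospondin repeats, by 1.30. The partners Plxnc1 (0.69, adjusted p = 0.138) and Plxnb2 (0.08, adjusted p = 0.761) had no call.

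Sema4g, a class 4 semaphorin, was by far the most abundant member in every library. It had 4003, 2635 and 3036 normalized counts in CflarFF and 2416, 2375 and 2296 in CflarLKO libraries. The values did not overlap and were lower in CflarLKO livers, but the difference missed the threshold (-0.45 (SE 0.18, adjusted p = 0.0858)) and was 0.02 under scaling by library size only. Its share of all semaphorin counts per kilobase was 73.8% to 81.3% in CflarFF and 66.1% to 68.5% in CflarLKO livers (74.7% to 82.6% and 66.0% to 68.3% without length scaling). The other semaphorins together went from between 181.9 and 205.5 to between 240.5 and 272.5 normalized counts per kilobase.

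**Figure D2:**
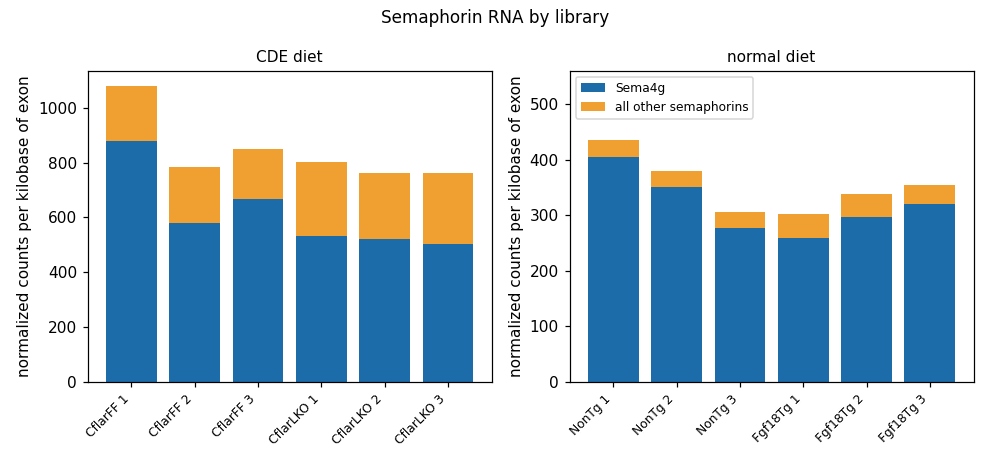
Normalized counts per kilobase of exon of Sema4g (blue) and of all other semaphorins together (orange), stacked, for each of the 12 libraries, CDE diet on the left and normal diet on the right with its own axis. Sema4g was 66.1% or more of the bar in every library. The orange part was larger in each CflarLKO library than in each CflarFF library, and in each Fgf18Tg library than in each NonTg library.

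Among the semaphorin receptors the class A plexins diverged. Plxna3 had 8.88, 4.72 and 3.57 normalized counts in CflarFF and 22.4, 34.8 and 33.7 in CflarLKO libraries, and Plxna4 had 14.4, 22.4 and 20.2 and 69.3, 66.1 and 50.5. Both rose without overlap, by 2.35 and 1.71 on the log2 scale (adjusted p = 0.00191 and 0.00135). Plxna2 had 94.3, 76.7 and 85.6 in CflarFF and 44.8, 52.2 and 66.1 in CflarLKO libraries, lower in each CflarLKO library, and its change was -0.67 (SE 0.22, adjusted p = 0.0381). That call was not stable: it was lost without CflarFF replicate 1 or 3, without CflarLKO replicate 1 or 2, with DESeq2 (-0.68), limma-trend (-0.61) and a replicate block (-0.67), and under scaling by library size only (-0.21). Plxna1 had no call (0.53, adjusted p = 0.0896). Plxnd1, a vascular plexin that binds Sema3e, rose by 0.89 (adjusted p = 0.0104). Nrp1, the co-receptor of Sema3a and of vascular endothelial growth factor, had 1039, 512 and 712 in CflarFF and 474, 412 and 373 in CflarLKO libraries, lower by -0.84 (SE 0.23, adjusted p = 0.0221). This call was lost without CflarFF replicate 3 (-0.88), without CflarLKO replicate 2 (-0.83) or 3 (-0.77) and under scaling by library size only (-0.37). Nrp2 was 118 ± 32.2 in CflarLKO and 129 ± 32.3 in CflarFF livers (SD, n = 3 each) and had no call.

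In the ephrin system the main ligand fell while several receptors, though not the most abundant ones, rose. Efna1, a lipid-anchored ligand of EphA receptors first found as a gene induced by tumour necrosis factor in human endothelial cells, had 449.6, 396 and 333 normalized counts in CflarFF and 169, 163 and 161 in CflarLKO libraries. The CflarLKO values were nearly the same in the 3 mice and less than every CflarFF value, and the change on the log2 scale was -1.26 (SE 0.15, adjusted p = 0.000275). Efna1 was 73.9% to 77.1% of ephrin counts per kilobase in CflarFF and 48.7% to 50.8% in CflarLKO livers (60.1% to 65.0% and 34.8% to 36.5% without length scaling). Efnb2, an ephrin of arterial endothelium, rose from 12.4 ± 3.28 to 32.3 ± 6.3 (SD, n = 3 each), by 1.39 on the log2 scale. Its venous receptor Ephb4 had no call (0.69, adjusted p = 0.055), nor had Efnb1 (0.17), Efna4 (1.65) or Efna5 (0.33).

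Of the 9 Eph receptors tested, 6 were higher and none was lower, beside 15.6% and 13.1% of all genes tested. Ephb3 and Ephb6, the latter without kinase activity, rose by 2.58 and 2.59 from low levels, 5, 2 and 1 and 1, 3 and 2 counts in the CflarFF libraries, and Ephb3 by 3.33 without CflarFF replicate 1. Both reached the minimum level of the filter in the CflarLKO libraries only. Ephb2 rose by 1.10, a call lost without CflarLKO replicate 1 (1.01, adjusted p = 0.0504 in edgeR). Epha7 had 21.1, 33 and 17.8 normalized counts in CflarFF and 67.9, 83.4 and 45.7 in CflarLKO libraries, with no overlap, and rose by 1.46 (SE 0.31, adjusted p = 0.00583). Epha3 rose by 1.15 and Epha5 by 0.96. These calls were lost without CflarFF replicate 3 or CflarLKO replicate 2, and that of Epha3 also without replicate 1 of either group. Epha1 and Epha2, the EphA receptors with the most counts, had no call (0.24 and 0.24 on the log2 scale). Over all members, 20 of the 28 calls were kept without each of the 6 libraries in turn, and the other 8 have been named with the libraries concerned.

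In Fgf18Tg livers far fewer guidance genes could be tested and fewer differed. Of the 65 members listed for the normal diet, 27 passed the filter, 6 were called higher and 1 lower by edgeR (10.7% and 11.7% of the 10909 genes tested), and 20 had no call. Under scaling by library size only, 11 were higher and 0 lower, with a median of all genes of 0.42 on the log2 scale. All 7 called members differed over 2-fold, as did 6.71% of all genes upward and 2.04% downward. In 9 tested members every Fgf18Tg value was above every NonTg value (19.4% of all genes tested), and in 2 every one was below (19.3%). The median log2 fold change was 0.19 over the 27 members and 0.0186 over all genes tested. Of the 6 higher members, 4 (Ntn1, Unc5b, Plxna1 and Efna5) had reached the minimum level of the filter in the Fgf18Tg libraries only. The lower one, Plxna2, had reached it in the NonTg libraries only. The 38 members not tested had 1 to 42 counts in all over the 6 libraries (median 10), and 7 members had 0 counts in every NonTg library. Of the 38, 8 had every Fgf18Tg value above every NonTg value and 0 had every one below, beside 11% and 1.89% of all genes under the filter with at least 1 count. Among the 8 were Sema4d, with 12, 12 and 4 counts in Fgf18Tg and 4, 4 and 3 in NonTg libraries, and Epha4, with 9, 5 and 4 and 1, 1 and 2 counts. Slit2 was also under the filter, with 6, 0 and 0 counts in Fgf18Tg and 0, 0 and 1 in NonTg libraries.

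Ntn1, Unc5b and Robo2 were the tested members with the largest changes. Ntn1 had 4.3, 0 and 3.39 normalized counts in NonTg (4, 0 and 3 counts) and 36.7, 33.3 and 47.4 in Fgf18Tg libraries, and rose by 3.75 (SE 0.44, adjusted p = 1.26e-05). Unc5b had 3.23, 5.29 and 7.91 in NonTg and 40.9, 43.2 and 38.2 in Fgf18Tg libraries and rose by 2.88 (SE 0.32, adjusted p = 7.66e-06). Robo2 had 19.4, 13.2 and 15.8 in NonTg and 57.1, 45.9 and 48.9 in Fgf18Tg libraries and rose by 1.65 (SE 0.24, adjusted p = 9.77e-05). For these 3 genes the values of the groups were far apart, and their calls were kept without each library and under every alternative run. Robo1 had 17.2, 13.2 and 17 in NonTg and 11.4, 18.9 and 19.9 in Fgf18Tg libraries and no call, and the share of Robo2 among Robo counts per kilobase went from between 29.5% and 42.8% to between 52.7% and 68.7%. Neo1 had no call (0.10, adjusted p = 0.824).

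**Figure D3:**
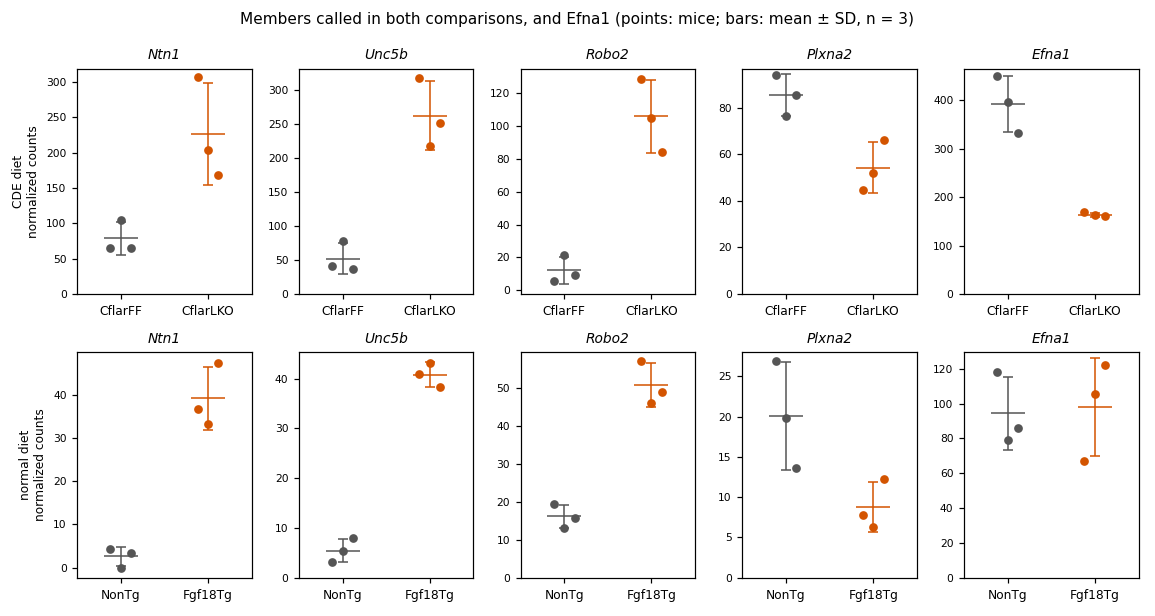
Normalized counts of Ntn1, Unc5b, Robo2, Plxna2 and Efna1 in each mouse (points), with the mean and SD of 3 mice (bars), in the CDE diet experiment (top) and the normal diet experiment (bottom), each panel with its own axis. Control and altered groups do not overlap in any panel except Efna1 on the normal diet.

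The other calls in Fgf18Tg livers were closer to the threshold. Plxna2 fell, with 26.9, 19.8 and 13.6 normalized counts in NonTg and 7.81, 6.3 and 12.2 in Fgf18Tg libraries and a change of -1.28 (SE 0.36, adjusted p = 0.0178) on the log2 scale. Sema6d, a transmembrane ligand of plexin-A1, had 20.4, 13.2 and 17 in NonTg and 40.3, 40.5 and 22.9 in Fgf18Tg libraries and rose by 1.08 (SE 0.28, adjusted p = 0.00985). Plxna1 itself rose by 1.43 (SE 0.42, adjusted p = 0.0206) from 6, 3 and 4 counts in NonTg to 22, 12 and 13 in Fgf18Tg libraries. Efna5, a lipid-anchored ephrin, had 6.46, 9.25 and 17 in NonTg and 21, 30.6 and 21.4 in Fgf18Tg libraries and rose by 1.15 (SE 0.35, adjusted p = 0.025). None of these groups overlapped, but each of the 4 calls was lost when some library was left out. Those libraries were Fgf18Tg replicate 1 for Sema6d (0.95), Fgf18Tg replicate 2 and NonTg replicates 1 and 2 for Efna5 (0.94, 0.84 and 1.04), Fgf18Tg replicate 3 and NonTg replicates 2 and 3 for Plxna1 (1.25, 1.29 and 1.34), and Fgf18Tg replicates 1 and 2 and NonTg replicate 1 for Plxna2 (-1.22, -1.12 and -1.01). With DESeq2 the calls of Efna5, Plxna1 and Plxna2 were lost at adjusted p = 0.0765, 0.0854 and 0.0692. Sema4g had 1842, 1598 and 1259 in NonTg and 1178, 1347 and 1456 in Fgf18Tg libraries, with overlapping values and no call (-0.24, adjusted p = 0.224). All other semaphorins together had 29.12 to 30.45 normalized counts per kilobase in NonTg and 34.99 to 43.38 in Fgf18Tg libraries.

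Set side by side, the experiments shared 4 called members, Ntn1, Unc5b and Robo2 higher and Plxna2 lower, which were 14.3% of the 28 calls in CflarLKO and 57.1% of the 7 calls in Fgf18Tg livers. On the normal diet Ntn1 and Unc5b had reached the minimum level of the filter in the Fgf18Tg libraries only, and Plxna2 in the NonTg libraries only. On the CDE diet Robo2 had reached it in the CflarLKO libraries only. Each of the 4 thus entered a test through the group where it was higher. No member was called in opposite directions, as 0.622% of all genes tested in both were. Of the 28 members called in CflarLKO livers, 19 were under the filter in the normal diet experiment, and for 16 of these 19 only the test of the difference over all 12 libraries was possible (all but Ephb6, Sema3a and Sema7a). Of the 25 members tested in both, 19 (76%) had the same sign, as had 69.5% of the 9968 genes tested in both, and 4 (16%) were called in both in the same direction, as were 12.3% of those genes. Over all genes the shared calls were 25.1% of the calls in CflarLKO and 50.3% of those in Fgf18Tg livers. The experiments share no control libraries.

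**Figure D4:**
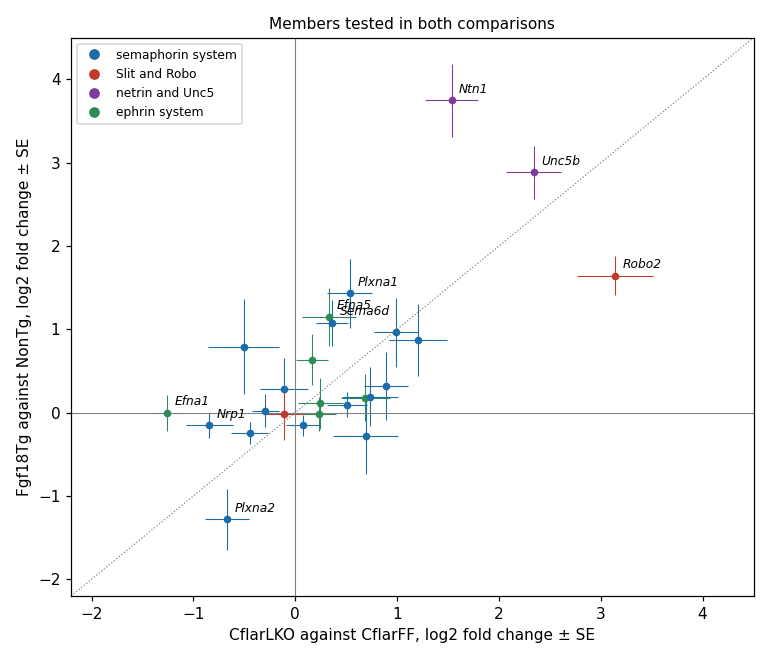
Log2 fold change with its standard error in CflarLKO against CflarFF (x axis) and in Fgf18Tg against NonTg (y axis) for the 25 members tested in both, coloured by family, with a dotted line of equal change. Ntn1, Unc5b and Robo2 lie at the upper right, Plxna2 at the lower left, and Efna1 lies at -1.26 on the x axis and near 0 on the y axis.

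The difference between the effects was tested directly on all 12 libraries, for 49 members among 13956 genes. Of all genes, 1.32% had a larger change in CflarLKO and 1.78% in Fgf18Tg livers, larger meaning more positive. Efna1 was the only member called among the 49, with an effect in CflarLKO minus that in Fgf18Tg livers of -1.18 (SE 0.27, edgeR adjusted p = 0.0213). In the normal diet experiment Efna1 had 118, 79.3 and 85.9 normalized counts in NonTg and 67.3, 105 and 122 in Fgf18Tg libraries, which overlapped (-0.00, adjusted p = 0.994). The difference for Efna1 was between -1.03 and -1.41 when single libraries were left out, and its call was lost without CflarFF replicate 1, Fgf18Tg replicate 2 or 3, or NonTg replicate 2 or 3. It was also lost under a replicate block (-1.17, adjusted p = 0.0606 in edgeR) and at a threshold of 0.01. None of the 16 members called in CflarLKO livers but under the normal diet filter had a called difference (3 had an unadjusted p under 0.05 in edgeR: Plxna4, Epha7 and Efnb2), and the smallest adjusted p among them was that of Plxna4 (1.98, adjusted p = 0.118 in edgeR). For Robo2 the difference was 1.57 (adjusted p = 0.0724), which was called without CflarFF replicate 2 (2.24, adjusted p = 0.00296 in edgeR). For Ntn1 it was -2.18 (adjusted p = 0.0778), called without CflarLKO replicate 1 (-2.54) and with no filter (-2.27). The difference for Nrp1 was called without CflarFF replicate 2 (-0.82).

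Further genes of the same signalling systems, a list of 65 co-receptors, adaptors and cytoplasmic partners, were also tested. In CflarLKO livers 53 passed the filter, 18 were higher and 1 was lower (15.6% and 13.1% of all genes tested), with a median log2 fold change of 0.40, and 38 were higher and 1 lower under library size only. Plxdc2, a membrane protein with a plexin-like domain, rose by 3.45, and Dpysl4 and Dpysl3, collapsin response mediators that act downstream of semaphorins, rose by 3.12 (4.06 without CflarFF replicate 2) and 2.75. Ptk7, an inactive kinase of planar cell polarity, rose by 2.48 (3.21 without CflarFF replicate 2), Flrt2, a ligand of Unc5 receptors, by 1.94, and Mical1, an enzyme that acts on actin downstream of plexins, by 1.89. Flrt2 lost its call without CflarFF replicate 1 (1.57) or CflarLKO replicate 1 (1.90) or 2 (1.75) and rose by 3.04 without CflarFF replicate 3. The lower gene was Rnd2, at -1.23. The filter leans on the higher group here too. All the higher genes just named reached its minimum level in the CflarLKO libraries only. In the CflarFF libraries Plxdc2 had 6, 4 and 5 counts, Dpysl4 1, 4 and 1, and Flrt2 2, 2 and 9. In Fgf18Tg livers 38 were tested, 14 were higher and 0 lower by edgeR (10.7% and 11.7% of all genes tested), with a median of 0.42, and 22 were higher and 0 lower under library size only. They included Ptk7 (3.56), the adaptor Nck2 (2.95), Reln (2.43), Plxdc2 (1.33) and the GTPase Rnd3 (1.04). Of these, Reln reached the minimum level of the filter in both groups. Ptk7 (0, 0 and 2 counts in NonTg libraries), Nck2 (2, 3 and 1), Plxdc2 and Rnd3 reached it in the Fgf18Tg libraries only. The call of Plxdc2 was lost without Fgf18Tg replicate 2 (1.22) or NonTg replicate 1 (0.97) or 2 (1.34), that of Rnd3 without replicate 1 of either group (0.84 and 0.75), both with DESeq2, and Ptk7 rose by 2.97 without NonTg replicate 1 and by 6.44 without NonTg replicate 3.

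Markers of several cell types moved in the same libraries. Only those that passed the count filter were tested, and a marker low in the controls could pass through the altered group alone. Over all genes tested, 15.6% were higher and 13.1% lower in CflarLKO livers, and 10.7% and 11.7% in Fgf18Tg livers. In CflarLKO livers 12 of 13 tested markers of fibroblasts and myofibroblasts rose, with summed levels of 5911 to 6702 normalized counts against 951.5 to 1432 in CflarFF livers. Likewise 10 of 10 monocyte and macrophage markers (6023 to 6849 against 1791 to 2664), 7 of 9 bile duct markers (8946 to 12540 against 1746 to 4791) and 4 of 4 tested Schwann cell and neuron markers (242.9 to 284.2 against 53.52 to 109.7) rose. These 4 were of 12 in the table, and S100b among them had 0, 1 and 2 counts in CflarFF and 17, 25 and 15 in CflarLKO libraries. Ncam1 had the most counts of the 4 in the CflarLKO libraries (130, 149 and 75, beside 15, 20 and 13 in CflarFF libraries). Of those not tested, Nefl, Nefm, Th, Gap43 and Uchl1 had 0 to 3 counts per library, while Tubb3 and Prph reached 21 and 11 in CflarLKO replicate 1. Of the mesothelial markers 3 of 4 tested rose (6143 to 7716 against 2806 to 3458). Most of that sum was Krt8, with 10760, 8717 and 5027 counts in CflarLKO and 3085, 2805 and 2337 in CflarFF libraries. The other genes of the list had 0 to 97 counts per library, so Krt8 is not taken as particular to mesothelium. Wt1 (4.85) and Gpm6a (1.99) also rose, and Msln had no call (0.03). Higher too were 3 of 5 markers of dividing cells (346.4 to 938.1 against 149.8 to 223) and 2 of 4 of neutrophils (160 to 198.8 against 101 to 102.3). The same was so for 2 of 5 of T and NK cells, 1 of 5 of B cells and 2 of 9 of Kupffer cells (Adgre1 and C1qa). Of 15 stellate cell markers 7 rose and 3 fell (6349 to 9339 against 3562 to 5165). Of 10 vascular endothelial markers 3 rose (1684 to 2406 against 1036 to 1414), and of 10 sinusoidal endothelial markers 1 rose (1808 to 2390 against 1646 to 2293). The 3 vascular ones were Eng, Efnb2, itself a member, and Cd34, which is in the fibroblast list as well. Of 14 hepatocyte markers 6 fell and none rose (459500 to 570200 against 703500 to 1443000). In Fgf18Tg livers 8 of 13 tested stellate cell markers, which include Reln, rose (1282 to 1684 against 430.8 to 593.3), as did 8 of 8 fibroblast markers (649.6 to 907 against 119.5 to 159.3) and 3 of 6 vascular endothelial markers (435.9 to 507.5 against 126.9 to 176.3). Those 3 were Plvap (2.17), Eng (2.21) and Cd34 (4.00), and Cd34 is counted in the fibroblast list as well. The vascular markers Pecam1 (0.62), Cdh5 (0.09) and Esam (0.07) had no call. Also higher in Fgf18Tg livers were 5 of 6 monocyte and macrophage markers (350 to 396.6 against 105.1 to 132.4), 3 of 4 bile duct markers (568.7 to 764.8 against 174.4 to 211.3), 5 of 6 neutrophil markers (322.1 to 608.7 against 22.6 to 26.91), 2 of 4 of dividing cells and 1 of 6 of Kupffer cells. The neutrophil markers Ngp and Retnlg had 0 counts in every NonTg library and passed the filter through the Fgf18Tg libraries. Krt8, the only gene of the mesothelial list tested, fell (-0.41). It had 223 to 539 counts per library and the other genes of that list 0 to 7, so its fall does not speak for mesothelium. Ncam1, the only gene of the Schwann cell and neuron list tested, had 75 to 515 counts and no call (0.60). No lymphocyte marker passed the filter. Of 14 hepatocyte markers 1 rose and 6 fell (237900 to 267900 against 276300 to 308200), and of 10 sinusoidal markers 1 rose and 3 fell (209.7 to 295.2 against 249.8 to 361.6). No listed marker in the tables was at 0 in all 6 libraries of an experiment. The part of these cells in the changes of the guidance genes was not tested.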

How the data were processed

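The authors isolated polyadenylated RNA from whole liver, amplified the reverse-transcribed cDNA by PCR, ran it on an Illumina NovaSeq and used Bowtie2 to map reads to GRCm39. The counting tool, annotation and use of strand are not given in the sources used here, so overlapping and antisense genes may share reads. The deposited tables, 1 per experiment, hold read counts and a normalized signal that the authors made with TCC-GUI by dividing each library's counts by 1 factor, used here only in alternatives. All count columns were assigned to a labelled library.

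Tests were run with edgeR 4.0.16 (R 4.3.3) on the 6 libraries of each experiment, with filterByExpr (minimum count 10, minimum total count 15), TMM factors, the robust quasi-likelihood test and Benjamini-Hochberg adjustment over all genes tested, at a threshold of 0.05. Normalized counts are counts divided by library size and TMM factor and scaled to the table's mean, with the SD of 3 mice. Counts per kilobase used the merged exon length of GENCODE M21 (found for 66 of 66 members). The difference between experiments was fitted over the 13956 genes that passed the filter among 18924 names held by both tables. The edgeR fit was tested on simulated data with known changes. The alternatives tried were other scaling (RLE, library size alone, or factors recovered from the authors' values), other tests (DESeq2 1.42.0, or limma-trend from limma 3.58.1 with a pseudocount of 1), other filters (none, or 10 counts in 3 libraries), a block for the replicate number, one fit over all 12 libraries, stricter thresholds (adjusted p under 0.01, or 2-fold), and leaving out each library.

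The members, gene lists and rules were chosen with earlier results of these data known. Every called member is named, with values per library for the 12 with the largest change among those called whose higher group averaged 20 or more normalized counts, for members whose effects differ and for the most abundant of each family. Of the other pathway genes called, the 6 with the largest change per comparison are named, except 1 that is not reported here. Rnd2 and library values given beyond this rule, such as those of Nrp1, Plxna2 and Robo1 and the counts of low members, were chosen after their values were seen. Replicates of a group differed beyond sampling noise (chi-square per gene 3.38 to 52), so none was counted as a duplicate. With 3 libraries per group an exact permutation test cannot go below p = 0.1, so calls rest on the fit across genes.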

Additional observations from a re-analysis of the deposited data

Results flagged for a closer look

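Efna1 was the only member whose effect differed between the experiments by a test of the difference itself. Its log2 fold change in CflarLKO minus that in Fgf18Tg livers was -1.18 (edgeR quasi-likelihood test, adjusted p = 0.0213). Efna1 was lower in CflarLKO livers in 3 of 3 libraries and overlapped between Fgf18Tg and NonTg livers. Under a replicate block the adjusted p of this difference was 0.0606. Diet, age, sex, table and control mice differ between the experiments and cannot be told apart from the genotypes.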

How the results depend on the processing

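No direction of a called member turned under any alternative run. Scaling by library size only moved the log2 fold change of the median gene from -0.00163 to 0.46 in CflarLKO and from 0.0186 to 0.42 in Fgf18Tg livers. Under it 40 members were higher and 1 lower in CflarLKO livers (25 and 3 by TMM) and 11 and 0 in Fgf18Tg livers (6 and 1 by TMM), and of the other pathway genes 38 and 22 were higher. With DESeq2 0 members were lower and 9 other pathway genes higher in Fgf18Tg livers. At an adjusted p under 0.01, 1 member was lower in CflarLKO and 0 in Fgf18Tg livers, 8 other genes were higher in Fgf18Tg livers and 0 members had a larger change there. Larger again means more positive, so Efna1, which fell in CflarLKO livers only, counts as larger in Fgf18Tg livers. With a 2-fold minimum 1 member was lower in CflarLKO livers and 6 other genes were higher in Fgf18Tg livers. The other genes lower in CflarLKO livers numbered 2 with RLE factors or no filter and 3 with all 12 libraries in one fit. Without the filter 33 members were higher in CflarLKO livers and 2 had a larger change in Fgf18Tg livers. Leaving out single libraries gave 20 to 30 members higher and 1 to 4 lower in CflarLKO livers (1 without CflarFF replicate 3 or CflarLKO replicate 2), 4 to 6 higher and 0 to 2 lower in Fgf18Tg livers (0 without Fgf18Tg replicate 1 or 2 or NonTg replicate 1, 2 without NonTg replicate 3), 0 to 1 with a larger change in CflarLKO and 0 to 2 in Fgf18Tg livers. For the other genes it gave 13 to 23 higher and 1 to 4 lower (4 without CflarFF replicate 2, 2 without CflarFF replicate 3) in CflarLKO, and 10 to 13 higher and 0 lower in Fgf18Tg livers. Same-numbered libraries did not deviate together (correlations -0.113 to 0.087) and no source pairs them. A replicate block gave 24 members higher in CflarLKO livers, lost the calls of Plxna2 and Sema3a there, and left 0 members with a larger change in Fgf18Tg livers. The causes of these shifts were not tested. Totals of 1136680 to 3089872 counts limit the normal diet experiment, where 38 members could not be tested.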
